A study of Homo sapiens with 12 samples.

Results

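The 10 genes described here are transcription factors and feedback regulators of the integrated stress response (ISR): ATF4, ATF5, DDIT3, ATF3, CEBPB, CEBPG, TRIB3, CHAC1, PPP1R15A and SESN2. They were taken by gene symbol and are 10 of the 14866 genes in the tables. All 10 were among the 13502 genes that passed a filter on low values (at least 10 in at least 3 libraries). RNA was sequenced from SHI-1 cells, an established MLL-AF6 positive acute myeloid leukaemia (AML) line. The 4 groups received DMSO (vehicle), disulfiram at 0.3 µM with copper at 1 µM (DSF), niclosamide at 5 µM (NSM), or both drugs at these doses (DSF+NSM) for 16 h. Each group had 3 libraries, which the study calls independent experiments. Disulfiram is a drug for alcohol dependence and was given here with copper, and NSM is an antihelminthic. Whether copper was also in the DMSO and NSM cultures is not stated in the sources used here. As a model the data rest on a single cell line, and on 1 dose and 1 time for each treatment.

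In the ISR, stress-activated kinases phosphorylate the translation factor eIF2α. General protein synthesis then slows, while a few mRNAs with upstream open reading frames, such as those of ATF4, ATF5 and DDIT3, are translated better. ATF4 pairs with C/EBP proteins at composite elements in DNA and drives genes of amino acid supply and stress handling, among them DDIT3 and the feedback genes PPP1R15A and TRIB3. The study asked whether NSM enhances the depletion of MLL-fusion proteins by DSF, and sequenced RNA to follow transcripts downstream. In MLL-rearranged cells it reported more eIF2α phosphorylation and less global translation with NSM. An eIF2α mutant that cannot be phosphorylated reversed the loss of fusion protein. The values given here are mRNA levels, not protein.

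The values are normalized counts, that is, counts per gene scaled for the library. Most of them were not whole multiples of the library's smallest step, so they are not plain read counts divided by a factor. Their sums were 14.0 to 14.4 M in DMSO and 14.9 to 15.3 M in DSF libraries, 16.5 to 17.5 M with NSM and 22.7 to 25.6 M with both drugs, which correspond to between 10.2 and 19.0 M reads, estimated from the smallest step of each table. The share of 4 ribosomal RNA rows was 1.11% to 2.84% without drug, 3.71% to 4.98% after DSF, 0.643% to 3.69% after NSM and 6.35% to 7.96% after both, and its part in the results was not tested. Spearman correlations within groups, across genes, were 0.980 to 0.996, apart from NSM replicate 3, which stood apart from NSM replicates 1 and 2 at 0.939 and 0.950. All 9 myeloid markers examined were listed, MPO at 14450 or more in every library, and their summed level was 76647 to 87152 in DMSO, 56385 to 63108 after DSF, 35380 to 43199 after NSM and 38201 to 39687 after both. Most of that sum was MPO, and the markers did not move together. MPO, ANPEP, LYZ, CSF1R and CD33 had lower means after NSM than in DMSO, and SPI1, PTPRC, ITGAM and FLT3 higher ones. Of 10 markers of other lineages, 6 were listed and MS4A1 was at 0 throughout, and the 6 summed to 125 to 133, 152 to 162, 169 to 208 and 214 to 482 in the same order. The part of these markers in the results was not tested. In bulk RNA, fewer cells of a type and less RNA per cell cannot be told apart.

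All 10 genes stood higher in each library of the 3 treated groups than in any DMSO library. The same held for 33.4% of all genes tested with DSF, 29.1% with NSM and 36.4% with DSF+NSM. ATF3, PPP1R15A and SESN2 then rose further when the drugs were combined, to 7.81, 2.90 and 3.22 times the NSM level. ATF5, which rose 2.89-fold with NSM, fell back to 0.455 of that level in the combination. The other 6 genes, ATF4, DDIT3, CEBPB, CEBPG, TRIB3 and CHAC1, could not be separated from NSM alone. A gene was said to rise further when DSF+NSM was called higher than each drug alone, and to fall back when it was called lower than the drug with the higher mean. A call is an adjusted p under 0.05 in a limma fit across all 13502 genes (Benjamini-Hochberg), on the log2(value + 1) scale, which slightly understates the change of low genes. Of all genes tested, 10.1% met the first rule and 31.1% the second, which does not require that a gene was first raised.

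**Figure D1:**
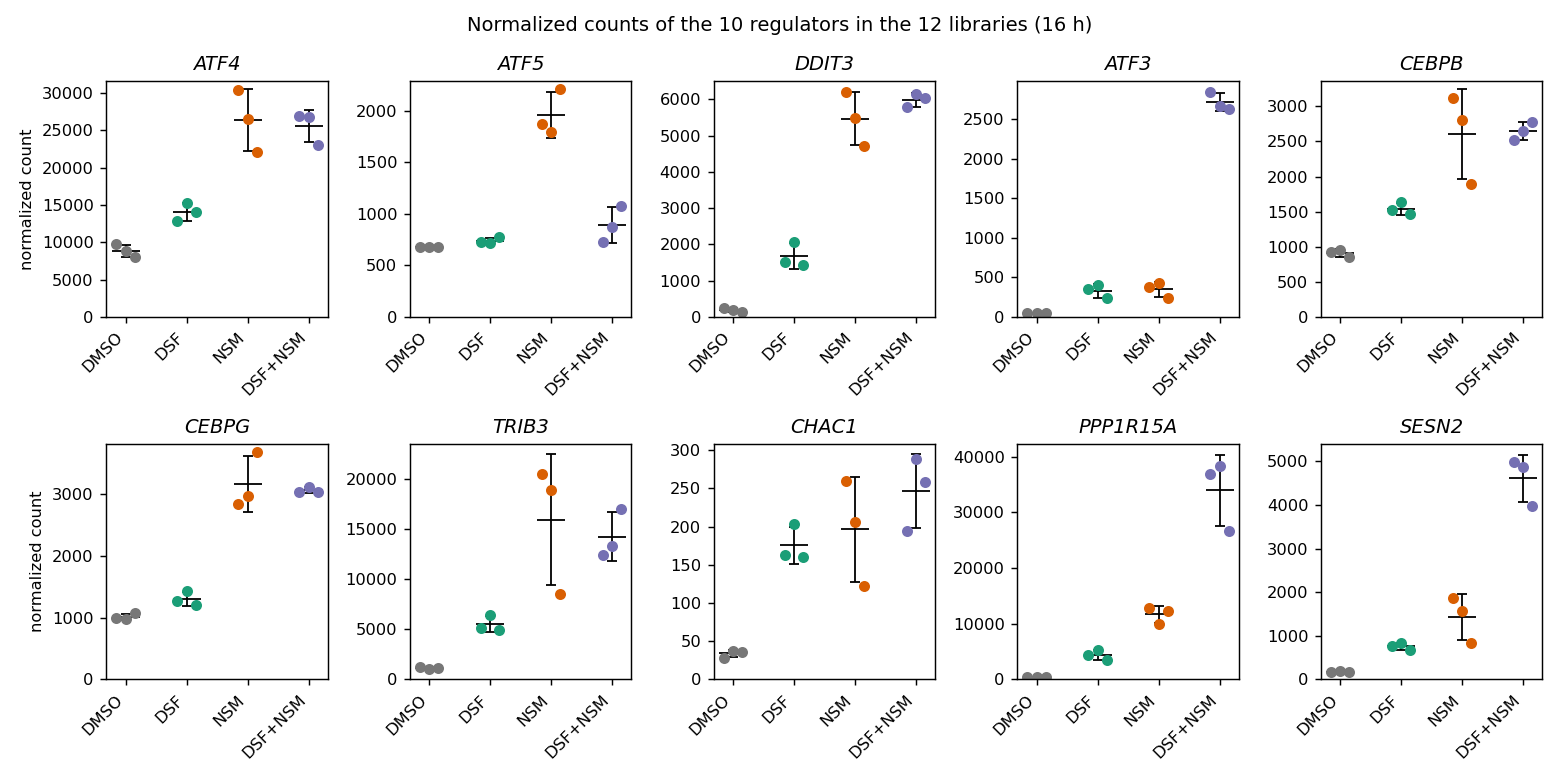
Normalized counts (y axis, linear, a scale of its own for each gene) of the 10 genes in the 12 libraries, grouped on the x axis by treatment. Points are libraries, and bars are the mean ± SD of 3. ATF3, PPP1R15A and SESN2 are highest in DSF+NSM with no overlap, whereas ATF5 is highest in NSM.

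Sequence before RefSeq starts of the genes is shown because several of these factors bind known motifs near starts. In the 250 bases before each RefSeq start (GRCh38.p14), both strands were searched for the C/EBP-ATF composite element TGATGNAA. Of the 9545 tested genes with a window, 2.29% held it, as did 3 of the 10 regulators, ATF3, CEBPG and CHAC1. The cAMP response element TGACGTCA, bound by ATF and CREB dimers, was in the window of 3.42% of genes and, among the regulators, of PPP1R15A. The antioxidant element TGACNNNGC was in that of 16.2%, and in CEBPB and PPP1R15A; the heat shock element (0.492%) was in none. At the PPP1R15A match to TGACGTCA, no antioxidant element overlapped it, and both antioxidant matches lay farther upstream. Each stretch is printed 5′ to 3′ on the strand of its gene, with the match in capitals. The CHAC1 match reads on the opposite strand.
ATF3, chr1:212565205-212565234: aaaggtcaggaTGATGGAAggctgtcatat
CEBPG, chr19:33374060-33374089: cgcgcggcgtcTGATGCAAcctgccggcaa
CHAC1, chr15:40953251-40953280: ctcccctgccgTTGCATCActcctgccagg
PPP1R15A, chr19:48872352-48872381: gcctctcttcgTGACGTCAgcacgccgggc
The matches lie 191 (ATF3), 42 (CEBPG), 209 (CHAC1) and 58 (PPP1R15A) bases before a start. By the GENCODE annotation, the printed matches of CEBPG, CHAC1 and PPP1R15A lie inside the gene, and that of ATF3 before it. The CHAC1 window lies wholly in exons of CHAC1 (250 of 250 bases), and the PPP1R15A window mostly in its own (209 of 250). The matches are descriptions of letters, not of binding. Of the genes with a composite element, ATF3 rose further in the combination, while CEBPG and CHAC1 were not called against NSM in the fit reported here. For CHAC1 the log2 change against NSM was 0.38, with an interval of -0.20 to 0.95, which includes a further rise. With equal library sums CEBPG was called lower than NSM (-0.55, limma adjusted p = 0.00279). A link between the element and these patterns was not tested.

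ATF4, the central factor of the response (chr22:39519695-39522683, plus strand, 3 exons in its canonical transcript), was already abundant without drug. Its normalized counts were 9707, 8833 and 8049 in DMSO and 12902, 15226 and 14060.5 in DSF libraries. They were 30445, 26500 and 22166 in NSM and 26892, 26814 and 23065 in DSF+NSM. Each DSF library was above each DMSO library, each NSM library above each DSF library, and the NSM and DSF+NSM libraries overlapped. By limma the log2 change against DMSO was 0.67 ± 0.13 (SE, n = 3 per group, adjusted p = 0.00568) for DSF, 1.57 ± 0.13 (adjusted p = 2.70e-06) for NSM and 1.53 ± 0.13 (adjusted p = 1.87e-06) for DSF+NSM. DSF+NSM against NSM was -0.03, with a 95% confidence interval of -0.33 to 0.26. Per kilobase of canonical transcript ATF4 had the highest level of the 10 genes in every group, 6246 ± 584 (SD) in DMSO and 18034 ± 1542 in DSF+NSM.

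ATF5, a relative of ATF4 whose translation is also controlled by eIF2α (chr19:49928702-49933935, plus strand), was the 1 regulator of the 10 that fell back in the fit reported here. ATF4, CEBPB and CEBPG also fell back with equal library sums, and TRIB3 did with library weights or without NSM replicate 3. The counts of ATF5 were 677, 676 and 682 in DMSO and 725, 721 and 774 in DSF libraries. With NSM they were 1874, 1794 and 2213, and with both drugs 724, 875 and 1074. The NSM libraries therefore stood above all others, and the DSF+NSM libraries overlapped those of DSF. ATF5 rose by 1.52 ± 0.15 on the log2 scale with NSM (limma, adjusted p = 6.39e-06), and DSF alone gave 0.12 ± 0.15 (adjusted p = 0.601). DSF+NSM minus NSM was -1.15 ± 0.15 (adjusted p = 9.19e-05), and this call held in every alternative run. Against DMSO the combination was 0.37 ± 0.15 (adjusted p = 0.0480), a call that other scalings or the removal of most single libraries ended. Scaled to equal library sums, it turned to -0.41 (adjusted p = 0.0457). Exons of ATF5 share 565 bases with NUP62 on the opposite strand, and the strand setting of the counting is not stated, so reads of the overlap cannot be told apart.

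DDIT3, which encodes the pro-apoptotic factor CHOP (chr12:57516588-57521737, minus strand), rose from a low level. It had 244, 193 and 139 normalized counts in DMSO and 1509, 2074 and 1439 in DSF libraries. NSM libraries had 6192, 5479 and 4723, and DSF+NSM libraries 5778, 6140 and 6043. The groups kept apart except for NSM and DSF+NSM, which overlapped. The mean was 8.72 times that of DMSO with DSF, 28.5 times with NSM and 31.2 times with both drugs, all called (limma, adjusted p = 1.27e-06, 2.10e-08 and 2.78e-09). With NSM its change was the 11th largest rise of the 13502 genes. DSF+NSM against NSM was 0.14, with an interval of -0.29 to 0.57. DDIT3 exons share 355 bases with MARS1 and 58 with MBD6 on the opposite strand, and 105 with the coding gene ENSG00000285133 on its own strand, so reads there cannot be told apart. MARS, as the tables name it, also rose (2790 in DMSO, 8037 in NSM). The count of DDIT3 relative to ATF4 was 0.0214 without drug, 0.119 with DSF, 0.208 with NSM and 0.235 with both (means of 3).

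ATF3, a stress-induced factor of the same bZIP class (chr1:212565334-212620777, plus strand), had the largest difference between DSF+NSM and NSM of the 10 genes. DMSO libraries had 51.4, 43.9 and 43.2, DSF libraries 347, 407 and 233, and NSM libraries 380, 422 and 239 normalized counts. DSF+NSM libraries had 2839, 2661 and 2627. Single drugs overlapped each other, and every combination library was above every single-drug library. The log2 change was 2.77 ± 0.23 with DSF, 2.85 ± 0.23 with NSM and 5.85 ± 0.23 with both (limma, adjusted p = 1.04e-05, 2.05e-06 and 2.78e-09). DSF+NSM was 3.07 ± 0.23 above DSF (adjusted p = 1.78e-06) and 3.00 ± 0.23 above NSM (adjusted p = 2.12e-06). The combined change lay 0.23 from the sum of both single changes, with an interval of -0.49 to 0.95. The lowest DMSO library held an estimated 44.1 reads, so the base of these folds is thin.

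CEBPB, a C/EBP partner of ATF4 (chr20:50190830-50192668, plus strand), had 927, 952 and 853 counts in DMSO and 1518, 1634 and 1459 in DSF libraries. NSM gave 3118, 2809 and 1896, and both drugs 2528, 2645 and 2775. All 3 treated groups were above DMSO, at 1.69, 2.86 and 2.91 times its mean (limma, adjusted p = 0.00784, 1.59e-05 and 7.66e-06). Its pattern over the 3 treatments was nearest, among the 10 genes, to that of ATF4, with a root mean square difference of 0.068 in log2 change. CEBPB shares 231 exonic bases with its antisense transcript CEBPB-AS1.

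CEBPG (chr19:33373685-33382686, plus strand), a partner that forms heterodimers with ATF4, had 1001, 981 and 1073 counts in DMSO and 1279, 1426 and 1209 in DSF libraries. The NSM libraries had 2835, 2972 and 3683 and the DSF+NSM libraries 3042, 3118 and 3033. Its values with DSF were above those of DMSO in 3 of 3 libraries, but the change of 0.35 ± 0.12 was not called (limma, adjusted p = 0.0640). It was called when the fit held only DMSO and DSF (adjusted p = 0.000758), or when NSM replicate 1 or 3 was left out (adjusted p = 0.0498 and 0.00314). In the same order, these fits called 7150 of 12766, 2884 of 13476 and 5551 of 13476 genes. The fit reported here called 2405 of 13502. NSM and DSF+NSM raised CEBPG by 1.63 ± 0.12 and 1.59 ± 0.12 (limma, adjusted p = 1.10e-06 and 6.44e-07).

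TRIB3 (chr20:362835-397559, plus strand), a pseudokinase that feeds back on ATF4 and CHOP, had 1225, 1030 and 1120 counts in DMSO and 5138, 6478 and 4985 in DSF libraries. NSM gave 20453, 18889 and 8482, and DSF+NSM 12462, 13275 and 17004.5. NSM replicate 3 was well below the other NSM libraries, and the combination libraries lay between them. Against DMSO the log2 changes were 2.29 ± 0.27, 3.73 ± 0.27 and 3.65 ± 0.27 for DSF, NSM and DSF+NSM (limma, adjusted p = 0.000153, 8.08e-07 and 4.58e-07). DSF+NSM against NSM was -0.07 (-0.66 to 0.51). Without NSM replicate 3 it was -0.48 (adjusted p = 0.00980), so that TRIB3 then fell back like ATF5. The same was seen with library weights (-0.53, adjusted p = 5.09e-05). Those fits called 6624 of 13476 and 9782 of 13502 genes, beside 5212 of 13502 in the fit reported here.

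CHAC1 (chr15:40952962-40956512, plus strand), an enzyme that degrades glutathione, was the lowest of the 10 genes, with an estimated 31.9 reads in its lowest library. It had 28.2, 37.7 and 36.2 counts in DMSO and 162, 203 and 161 in DSF libraries. NSM gave 260, 206 and 123, and both drugs 194, 288 and 259. The 3 treated groups overlapped one another and stood 5.16, 5.77 and 7.26 times above DMSO (limma, adjusted p = 0.000114, 1.63e-05 and 3.36e-06). The combination against DSF was 0.48 (-0.10 to 1.06, adjusted p = 0.166) and against NSM 0.38 (-0.20 to 0.95, adjusted p = 0.281). The former was called when the fit held only DSF and DSF+NSM (adjusted p = 0.0479) and without NSM replicate 3 (adjusted p = 0.0379). Those fits called 7319 of 13178 and 8108 of 13476 genes, beside 5818 of 13502 in the fit reported here.

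PPP1R15A, also named GADD34, directs a phosphatase to eIF2α and so ends the response (chr19:48872212-48876059, plus strand). It had 485, 500 and 478 counts in DMSO and 4428, 5252 and 3450 in DSF libraries. NSM libraries had 12917, 10010.4 and 12230.1, and DSF+NSM libraries 36939, 38333 and 26650.2. No library of any group overlapped with another group. The mean was 8.97, 24.0 and 69.6 times that of DMSO with DSF, NSM and both (limma, adjusted p = 4.22e-07, 2.10e-08 and 1.57e-10). DSF+NSM exceeded NSM by 1.53 ± 0.17 on the log2 scale (adjusted p = 3.94e-05) and DSF by 2.96 ± 0.17 (adjusted p = 3.57e-07). Its change in the combination was the 54th largest rise of all genes tested. Per kilobase its level in DSF+NSM, 14457 ± 2715 (SD), came next to that of ATF4, while in DMSO it was 208 ± 4.75. Relative to DDIT3 its count was 2.68 ± 0.731 without drug, 2.62 ± 0.279 with DSF, 2.17 ± 0.388 with NSM and 5.68 ± 1.10 with both (mean ± SD of 3), and only the combination libraries were all above 4.

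SESN2, which restrains mTORC1 when amino acids are short (chr1:28259518-28282491, plus strand), had 177, 184 and 179 counts in DMSO and 762, 842 and 671 in DSF libraries. It had 1875, 1580 and 839 in NSM and 4980, 4866 and 3983 in DSF+NSM. NSM replicate 3 reached down to the DSF libraries, whereas all combination libraries were above all others. The log2 change was 2.06 ± 0.24, 2.91 ± 0.24 and 4.66 ± 0.24 for DSF, NSM and DSF+NSM (limma, adjusted p = 0.000124, 1.97e-06 and 2.31e-08). DSF+NSM exceeded DSF by 2.60 ± 0.24 (adjusted p = 6.47e-06) and NSM by 1.76 ± 0.24 (adjusted p = 0.000133). Without NSM replicate 3 the latter was 1.41 (adjusted p = 4.49e-07). Of its relatives, SESN1 had 240 counts in DMSO and 162 in DSF+NSM (log2 change -0.58, called), and SESN3 had 58.2 and 103 (0.82, not called).

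Counted over the 10 genes, DSF raised 8 against DMSO, where 17.8% of all genes tested were called, 11.9% higher and 5.95% lower. NSM raised 10 (49.1% of all genes called, 25.4% higher and 23.7% lower) and DSF+NSM 10 (52.8% called, 28.3% higher and 24.5% lower). The 10 genes were above DMSO in all libraries of each treated group, as were 33.4%, 29.1% and 36.4% of all genes for DSF, NSM and DSF+NSM. The median log2 change of the 10 genes was 2.18, 2.64 and 3.23 in the 3 comparisons, beside 0.05, 0.01 and 0.03 for all genes. These comparisons share the DMSO libraries.

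**Figure D2:**
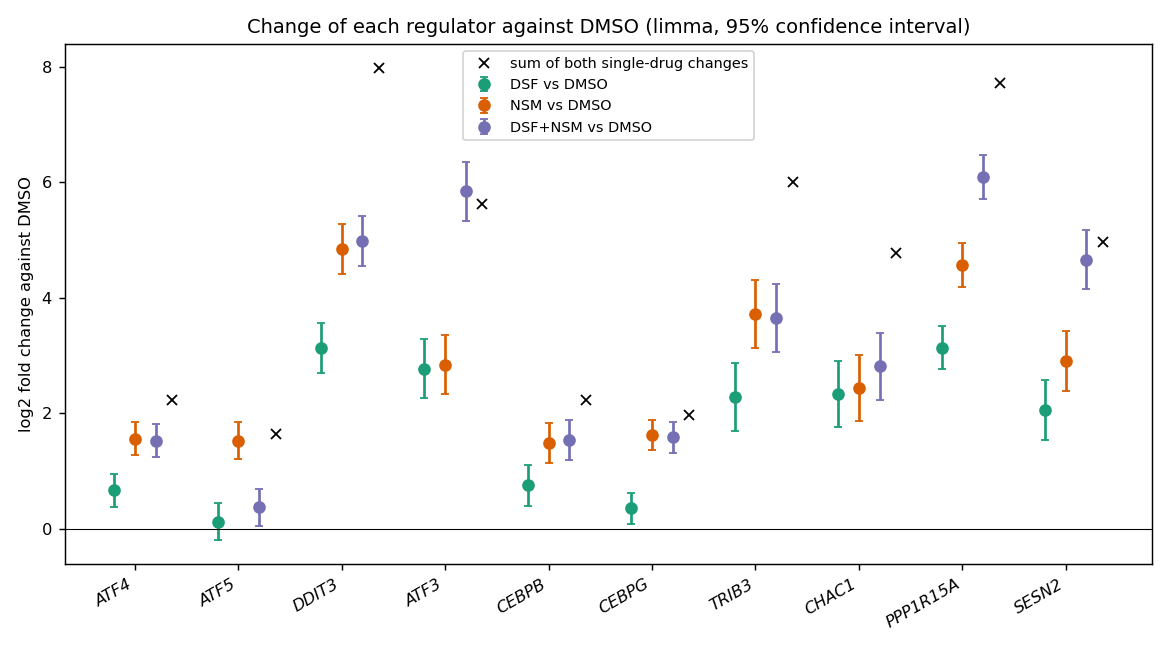
Log2 fold change against DMSO (y axis) of each gene (x axis) for DSF, NSM and DSF+NSM, with 95% confidence intervals from limma; crosses mark the sum of both single-drug changes. The combination lies near the cross for ATF3 and SESN2 and well under it for DDIT3, TRIB3, CHAC1 and PPP1R15A.

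NSM gave higher values than DSF at these doses for 8 of the 10 genes, by 0.73 to 1.72 on the log2 scale (44.4% of all genes were called, 21% higher and 23.4% lower). In 7 of the 10 every NSM library was above every DSF library, as in 25.6% of all genes. The exceptions were ATF3 (0.07, -0.44 to 0.58) and CHAC1 (0.10, -0.47 to 0.68), whose libraries overlapped. SESN2 was called (0.84 ± 0.24, limma adjusted p = 0.0128) although its groups overlapped, and lost the call in a fit of only these groups (adjusted p = 0.0727) and without DSF replicate 3 (adjusted p = 0.0516).

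Adding NSM to DSF raised 8 of the 10 genes over DSF alone, each without overlap between the groups (43.1% of all genes called, 21.7% higher and 21.4% lower), all but ATF5 and CHAC1. Such an absence of overlap was seen in 31.2% of all genes. With library sums made equal, 5 of the 8 stayed called higher, while ATF4 (0.18, adjusted p = 0.235), CEBPB (0.10, adjusted p = 0.632) and TRIB3 (0.67, adjusted p = 0.0561) were not, and ATF5 was called lower (-0.44, adjusted p = 0.0383; all by limma). Adding DSF to NSM raised 3 and lowered 1 (38.6% of all genes called, 20.3% higher and 18.3% lower). The 3 that rose (ATF3, PPP1R15A, SESN2) and ATF5 were also those whose libraries did not overlap between DSF+NSM and NSM; over all genes, 22.2% had every combination library higher and 19.3% every one lower. The choice of scaling matters here, since the library sums of DSF+NSM were the highest. With sums made equal, the median of all genes moved to -0.74 against DMSO and -0.48 against NSM. ATF3, PPP1R15A and SESN2 still exceeded NSM, by 2.49, 1.01 and 1.24, and still exceeded DSF (limma, highest adjusted p = 0.00083). Under that scaling ATF4, CEBPB and CEBPG fell back beside ATF5.

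**Figure D3:**
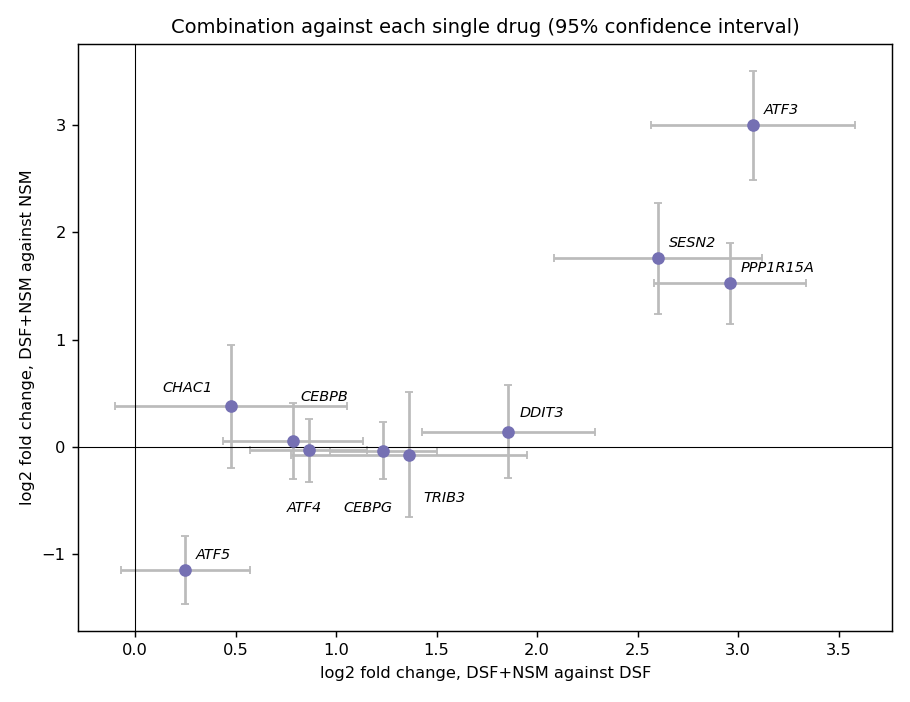
Log2 fold change of DSF+NSM against DSF (x axis) and against NSM (y axis) for the 10 genes, with 95% confidence intervals from limma. ATF3, PPP1R15A and SESN2 lie above 0 on both axes, ATF5 below 0 on the y axis, and the other 6 genes have intervals across 0 on the y axis.

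The interaction, the combined log2 change minus the sum of both single changes, was below 0 and called for 7 of the 10 genes (26.1% of all genes called, 12.1% higher and 14% lower). It was -3.00 ± 0.28 for DDIT3, -2.36 ± 0.38 for TRIB3, -1.96 ± 0.38 for CHAC1 and -1.62 ± 0.25 for PPP1R15A (limma, adjusted p = 4.39e-05, 0.000911, 0.00253 and 0.000667). It was -1.27 ± 0.21 for ATF5 (adjusted p = 0.000972), and -0.70 for both ATF4 and CEBPB (adjusted p = 0.0167 and 0.0391). PPP1R15A therefore rose further in the combination and yet by less than the sum. ATF3, SESN2 and CEBPG gave 0.23, -0.30 and -0.39, none of them called (adjusted p = 0.650, 0.543 and 0.117). That of CEBPG was called with equal sums (-0.81, adjusted p = 0.00415) and with library weights (-0.33, adjusted p = 0.00171). The call for CEBPB was lost without any single library but NSM replicate 3 and DSF+NSM replicate 3, and that for ATF4 without DSF replicate 2 (adjusted p = 0.0509). The interaction of SESN2 was called without NSM replicate 3 (-0.65, adjusted p = 0.00506) and with library weights (-0.46, adjusted p = 0.000506). For the interaction, 4784 of 13502 genes were called with equal sums and 8933 with library weights. The number was 6175 of 13476 without NSM replicate 3, and 3527 of 13502 in the fit reported here.

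Over 10795 genes with a mean of at least 50, the ones whose 3 changes against DMSO lay nearest to those of ATF4 were WHAMM, CSNK2A2 and UBXN1, with root mean square differences of 0.027, 0.033 and 0.060. Nearest to DDIT3 were NFKBIZ (0.53), C5AR1 (0.53) and AKR1C1 (0.79). ATF3 lay nearest to HIST2H2AA3 (0.27), DIRAS1 (0.27) and DUSP1 (0.36); HIST2H2AA3 belongs to a multi-copy histone family whose reads may be shared. DUSP1, an early-response phosphatase, changed by 2.57 with DSF, 2.26 with NSM and 5.93 with both drugs, beside 2.77, 2.85 and 5.85 for ATF3.

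The counts for the following lists stand beside called shares of all genes of 11.9% higher and 5.95% lower with DSF, 25.4% and 23.7% with NSM, 28.3% and 24.5% with both drugs, and 20.3% and 18.3% for the combination against NSM. The median change of all genes was 0.05, 0.01 and 0.03 against DMSO and 0.03 for the combination against NSM. Genes of amino acid synthesis and import are a main output of ATF4. Of 18 tested (of 20 listed), DSF raised 10, NSM raised 13 and lowered ALDH18A1, and DSF+NSM raised 8 and lowered 3. The median changes were 0.50, 0.86 and 0.30. Against NSM the combination lowered 9 and raised CTH. SLC3A2 and SLC7A5, the chains of a large neutral amino acid transporter, rose by 1.66 and 1.17 with both drugs, and CTH, which makes cysteine, by 1.39. ALDH18A1 (proline synthesis), PSPH (serine synthesis) and SLC7A1 (cationic amino acid import) fell (-1.80, -1.14 and -0.55). With equal library sums the combination raised only SLC3A2 of the 18 and lowered 9.

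Aminoacyl-tRNA synthetases load amino acids onto tRNA, and the list also holds the tRNA export factor XPOT. Of 13 tested (all-gene shares 11.9%, 25.4% and 28.3% higher and 5.95%, 23.7% and 24.5% lower), DSF raised 6 and lowered LARS, NSM raised 10, and DSF+NSM raised 8 and lowered 2, with medians of 0.24, 1.50 and 0.89. CARS, YARS and TARS rose by 2.13, 1.43 and 1.41 in the combination, and IARS and LARS fell (-0.57 and -0.28). Against NSM the combination lowered 8 of the 13. With equal sums it raised 6 and lowered 4 against DMSO.

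Most stress outputs of ATF4 and CHOP were higher after each treatment. Of 22 tested genes (FGF21, the other one listed, was not in the tables used here), DSF raised 16, NSM 19 and DSF+NSM 19, with 3 lower in the combination and medians of 1.04, 1.66 and 2.39. Against NSM alone, the combination raised 8 and lowered 4 (CEBPD, STC2 and, named after their values were seen, JDP2 and VLDLR). With equal sums this balance turned, to 5 higher and 10 lower, and without NSM replicate 3 it was 9 and 7. SQSTM1, an autophagy receptor, went from 2114 in DMSO to 11286 in DSF, 9354 in NSM and 49743 with both, and KLHL24, a ubiquitin ligase adaptor, from 133 to 328, 1064 and 2010. GDF15, a stress cytokine, stood at 0.76 to 0.98 in DMSO libraries, about 1 read each, and at 98.1 to 125, 71.6 to 120 and 424 to 477 in DSF, NSM and DSF+NSM. ERO1L, CEBPD and STC2 were lower with both drugs than in DMSO (-0.88, -0.85 and -0.74). With equal sums 15 of the 22 were called higher and 4 lower in the combination against DMSO.

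The eIF2 kinases, the eIF2 phosphatase and the mitochondrial relay act upstream of ATF4. The list also holds subunits of eIF2 and eIF2B, as well as EIF2A and EIF2D. Of 22 tested, EIF2S1, which encodes eIF2α itself, was called with DSF (-0.56, named after its value was seen), 9 were called with NSM and 12 with both, beside 17.8%, 49.1% and 52.8% of all genes, and the list's medians were -0.09, 0.07 and -0.11. Without NSM replicate 3, 4 rose and 6 fell with DSF, where 5551 of 13476 genes were called. In the same fit NSM raised 7 and lowered 8, and 8076 of all genes were called. PPP1R15B, the constitutive counterpart of PPP1R15A, rose by 1.40 in DSF+NSM, and EIF2S2 and EIF2A by 1.26 and 1.09. IMPACT, an inhibitor of the kinase GCN2, EIF2AK2, which encodes the kinase PKR, and OMA1, a mitochondrial relay protease, fell (-1.47, -1.09 and -1.02). With equal sums PPP1R15B and EIF2S2 rose and 16 genes fell in the combination.

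For 24 family relatives of the regulators, the all-gene shares were 11.9%, 25.4% and 28.3% called higher and 5.95%, 23.7% and 24.5% lower. With NSM and with both drugs, the relatives called lower were near these shares, and those called higher were above them. DSF raised 7 and lowered 2, NSM raised 13 and lowered 5, and DSF+NSM raised 11 and lowered 5, with medians of 0.20, 0.78 and 0.35. JUN, an AP-1 subunit that pairs with ATF3, went from 209 in DMSO to 1326 in DSF, 426 in NSM and 10209.6 with both drugs, and FOS and MAFF rose by 5.31 each in the combination. CHAC2, the paralogue of CHAC1, moved the other way, from 221 to 68.8 in the combination (-1.78), and CEBPE, a granulocyte factor, fell (-1.34). Of the falls with both drugs, the other 3 were CEBPD, SESN1 and CEBPZ, the last named after its value was seen. In the ATF6 and XBP1 arms of the unfolded protein response, 18 genes tested, DSF raised 7, NSM raised 8 and lowered 2, and DSF+NSM raised 13 and lowered PDIA4, beside 11.9%, 25.4% and 28.3% of all genes called higher, with medians of 0.28, 0.48 and 0.72. ERN1, the sensor IRE1, and the chaperones HSPA5 and DNAJB11 rose by 2.49, 2.27 and 1.45 with both drugs, while PDIA4 changed by -0.65. With equal sums the combination raised 6 and lowered 12 of the relatives, and raised 4 and lowered 4 of the chaperone list.

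**Figure D4:**
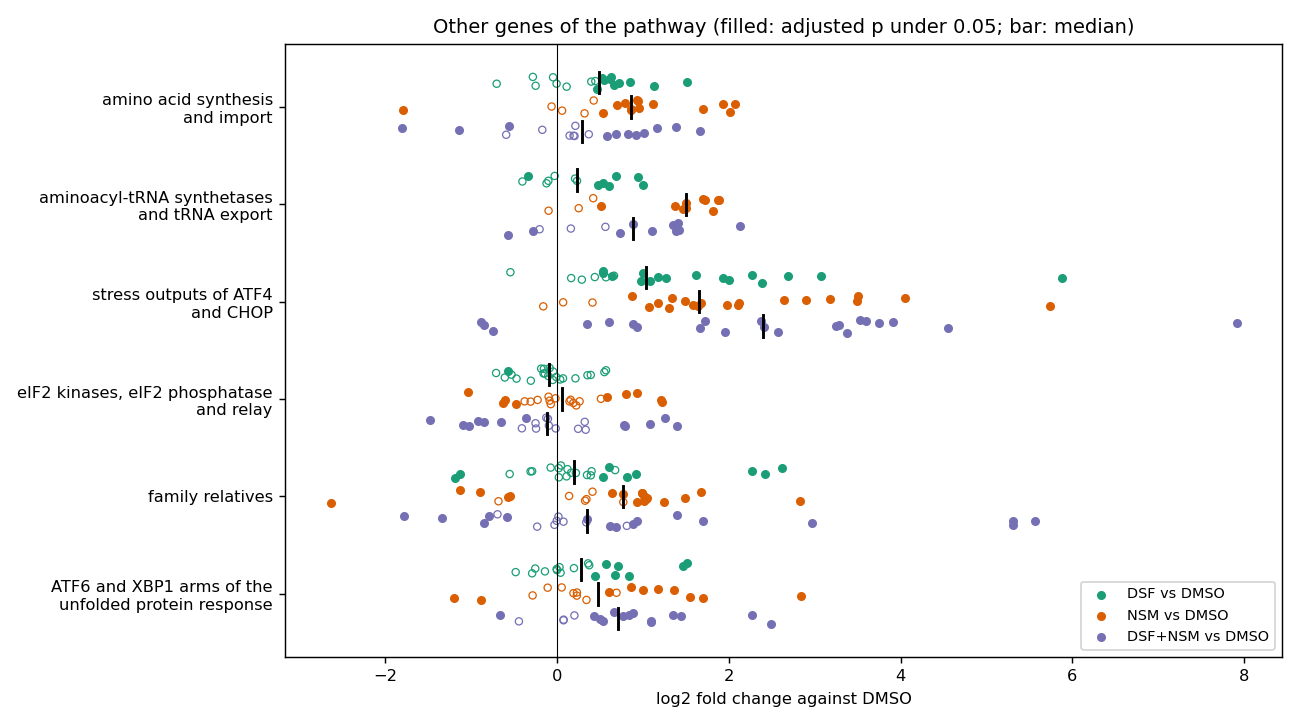
Log2 fold change against DMSO (x axis) of the genes in 6 lists around the regulators (y axis) after DSF, NSM and DSF+NSM. Each point is a gene, filled where its adjusted p was under 0.05 by limma, and the bar is the list's median, which for amino acid synthesis and import falls from 0.86 with NSM to 0.30 with both drugs.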

How the data were processed

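mRNA of 12 libraries (4 groups of 3) was analysed. The signal that the authors deposited for each library is a normalized count for each of 14866 genes. Per the file headers the tables come from a set of 24 libraries, and 12 are used here. The supplementary methods name STAR, Salmon and nf-core/rnaseq on GRCh38, whereas the submitters' processing notes list bcl2fastq 2.19, Trimmomatic, Bowtie2, Picard, featureCounts, DESeq2 and hg38. The medium is RPMI in the labels and IMDM in the methods. Of the nonzero values, 27.8% to 30.3% were whole multiples of the library's smallest step (tolerance 0.001), so reads were not recovered, no count model was fitted, and depths are estimates (sum divided by step).

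Values were transformed as log2(value + 1), genes needed 10 or more in 3 or more libraries, and limma 3.58.1 (R 4.3.3; trend, robust, 4 group means of all 12 libraries, no block) was fitted, with Benjamini-Hochberg adjustment over 13502 genes and a threshold of 0.05. p-values measure the spread between these libraries. Positions are from GENCODE 44, and sequences and starts from RefSeq (GRCh38.p14); all 10 genes matched. Tables and figures were made with Python 3.11.15, pandas 2.3.3 and matplotlib 3.10.9. The limma step was run on simulated data with independent noise, the same spread in all libraries for each gene, and the same effect in each treated group. These settings do not mimic NSM replicate 3, which stood apart, so the run does not test its influence.

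Named are the 10 genes, the 3 genes nearest in pattern to each of ATF4, DDIT3 and ATF3, relatives beside a member, and up to 3 called genes with the largest rise and fall of each list in DSF+NSM against DMSO; MARS is named for its overlap. The genes, lists and tests were chosen with earlier results of these data known. The lists were written from general knowledge. Alternatives were 3 scalings, 2 filters, pseudocounts of 0.1 and 10, library weights, a replicate block, only the groups compared, and leaving out each library in turn.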

Additional observations from a re-analysis of the deposited data

Results flagged for a closer look

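For 7 of the 10 genes the effect of NSM differed with and without DSF, by the limma interaction test. Of all genes tested, 26.1% were called, 12.1% higher and 14% lower. The differences in log2 change were -0.70 for ATF4, -1.27 for ATF5, -3.00 for DDIT3, -0.70 for CEBPB, -2.36 for TRIB3, -1.96 for CHAC1 and -1.62 for PPP1R15A. In each, the step from DSF to DSF+NSM was smaller than the step from DMSO to NSM. The direction was the same in all alternatives run for these 7 genes. The calls for CEBPB and ATF4 were lost when some single libraries were left out (limma, adjusted p up to 0.0947 and 0.0509). Groups of 3 libraries were not tested for single outlying libraries.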

How the results depend on the processing

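Over 70 results (10 genes in 7 comparisons) and 1530 recomputed values, 1459 kept direction and side of the threshold, 29 lost the call, 16 gained one and 26 changed sign; 49 results never changed. The number of the 10 genes called for DSF+NSM against NSM was 4 as reported, 7 with equal sums and 5 with library weights or without NSM replicate 3. In the last 2, TRIB3 was also lower (-0.53 and -0.48). Of all 13502 genes tested, 5212 were called as reported, 7391 with equal sums and 9782 with library weights. Without NSM replicate 3, 6624 of 13476 were called. Without 1 library each, the called numbers ranged from 8 to 9 (DSF), 10 to 10 (NSM), 9 to 10 (DSF+NSM), 8 to 9 (DSF+NSM against DSF), 4 to 5 (against NSM), 7 to 8 (NSM against DSF) and 5 to 8 (interaction). With equal sums the sign changed for ATF5 in DSF+NSM against DMSO (-0.41) and DSF (-0.44), for CHAC1 against DSF (-0.20), for DDIT3, CEBPB and CHAC1 against NSM (-0.37, -0.46, -0.14), for ATF3 and CHAC1 in NSM against DSF (-0.10, -0.068) and for the ATF3 interaction (-0.19). With library weights it changed for ATF4, CEBPB and CEBPG in DSF+NSM against NSM (0.0018, -0.11, 0.050) and the ATF3 interaction (-0.17). Leaving out single libraries, DSF+NSM against NSM ranged from -0.15 to 0.075 for ATF4, -0.48 to 0.16 for TRIB3, -0.16 to 0.20 for CEBPB and -0.11 to 0.078 for CEBPG, NSM against DSF from -0.16 to 0.32 for ATF3 and -0.13 to 0.41 for CHAC1, and the ATF3 interaction from -0.019 to 0.40. The cause was not tested. For ATF5 in DSF+NSM against DMSO the adjusted p was 0.0714 and 0.0707 with other scalings and 0.0509 without the filter. ATF3, PPP1R15A and SESN2 rose further, and ATF5 fell back, in all alternatives run. For DSF against DMSO, 2405 of all genes were called; the number was 8171 with library weights, 7150 in a fit of only these groups and 5551 without NSM replicate 3, and 911 to 1393 without DSF replicate 1 or 2 or any 1 DMSO library. The replicate block changed no call (8, 10, 10, 8, 4, 8 and 7 genes in the comparisons above). Of 18 pairs of libraries with the same number, 2 had deviations correlated over 0.1. Both were pairs of NSM with DSF+NSM libraries, replicate 2 (r = 0.118) and replicate 3 (r = 0.278). Across the groups the numbers were not shown to pair libraries, and a link within those 2 pairs was not tested. The fit of only the groups compared was not run for the interaction, which uses all 4. Estimated reads per library limit the precision of CHAC1 and ATF3 in DMSO.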
